A study of Mus musculus with 2 samples.

Results

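The 10 imprinted growth genes described here are Magel2, Dlk1, Igf2, H19, Cdkn1c, Ndn, Plagl1, Peg3, Mest and Grb10, measured in mouse ureters 4 days after birth. They were taken as every non-control spot that carries one of these gene names, which gave 18 probes and 72 spots on each array, out of 39429 gene probes. The list was chosen by the array ratios of Magel2 and Dlk1, which were lower in the mutant ureters, so the ratios of all 10 genes are a description and carry no test. All 18 probes, and so all 10 genes, passed the filter on dim probes that left 21143 genes for the comparison across the array.

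Imprinted genes are transcribed mainly from the allele inherited from one parent. Many of them act on growth before and shortly after birth: as a broad rule, paternally expressed ones promote growth and maternally expressed ones restrain it, and a good part of them is switched down after the first weeks of life. Several are also known from mesenchymal progenitors, fat cell precursors and muscle. Of the 10 genes, 7 are known as paternally expressed (Magel2, Dlk1, Igf2, Ndn, Plagl1, Peg3 and Mest) and 3 as maternally expressed in most tissues (H19, Cdkn1c and Grb10). The arrays do not distinguish the alleles.

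The mutant ureters, called Rbpj-cKO, came from Tbx18(cre/+);Rbpj(fx/fx) mice, and the control ureters from Tbx18(+/+);Rbpj(fx/n.d.) mice, in which the partner of the floxed allele was not determined. All mice were of the NMRI strain. Cre is expressed from one Tbx18 allele, so the control ureters keep both intact Tbx18 alleles, and recombination of Rbpj, the DNA-binding effector of Notch receptors, is limited to cells of the Tbx18 lineage, the mesenchyme around the ureteric epithelium. Each of 2 two-colour arrays compared one Rbpj-cKO RNA with one control RNA: array 1 held a pair labelled female in which the mutant RNA was read in red, and array 2 a pair labelled male with the dyes exchanged. The sources used here do not give the number of animals behind an RNA. With 2 pairs, the precision of every value is limited.

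Ratios are on the log2 scale with Rbpj-cKO on top, so that a negative value means less RNA in the mutant, and errors are SDs between the arrays (n = 2). The targeted gene Rbpj stood at -0.92 on array 1 and -1.10 on array 2. Smooth muscle and urothelium markers were well above background in all 4 RNAs (6 of 6 each). Their median ratios on arrays 1 and 2 were -0.09 and -0.35 for smooth muscle and 0.51 and 0.08 for urothelium. Endothelium markers had medians of -0.56 and -0.05. The part of these tissues in the ratios of the 10 genes was not tested. The Y-linked genes Ddx3y and Eif2s3y had ratios of 4.23 and 4.26 on array 1 although both its RNAs are labelled female, so the Rbpj-cKO RNA there goes against its sex label in these genes. The X-inactivation RNA Xist, however, had a log2 level of 12.96 in that RNA and 12.82 in its control (brighter probe), and was not well above background in either male-labelled RNA. All 10 hepatocyte markers had opposite signs on the arrays, and their median ratio was 0.53 on array 1 but -2.56 on array 2. Their summed level on the log2 scale was 15.54 and 15.80 in the Rbpj-cKO RNAs of arrays 1 and 2, against 15.47 and 16.62 in the control RNAs, and all 10 were well above background in every RNA. Kidney epithelium markers were higher on both arrays (6 of 6 measured, medians 1.06 and 0.42), and the part of liver and kidney RNA in the results was not tested. The values of the 10 genes are therefore given for each array.

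Of the 10 genes, 9 were lower in the Rbpj-cKO RNA on both arrays, and Grb10 was close to 0 on both; with each array centred on its median in place of loess, the count was 5, since H19, Plagl1, Mest and Peg3 were then above 0 on array 1. Over all genes tested, 29.8% were lower on both arrays. Magel2 and Dlk1 stood lowest, followed by Igf2, Cdkn1c and H19. In the order of the means (Magel2, Dlk1, Igf2, Cdkn1c, H19, Ndn, Plagl1, Peg3, Mest and Grb10), each gene from Cdkn1c to Mest differed from the next by less than the larger of their SDs. Only Magel2 was at least 1.5-fold lower on both arrays (1 of 10, beside 0.795% of all genes), and 0 of 10 were at least 1.5-fold higher (0.402% of all genes). Dlk1 missed this size on array 2 by 0.0011 on the log2 scale, and 7 of the 10 stayed under 1.5-fold on each array. The list had a median of -0.33 on each array, against -0.01 and 0.01 over all genes. With median centring the list's medians were -0.09 and -0.55. These counts and medians include Magel2 and Dlk1, whose ratios chose the list. After loess, 7 of the 8 genes without them were lower on both arrays, and the median of their means was -0.24. With median centring, only Igf2, Cdkn1c and Ndn of these 8 were lower on both. The 8 were also listed with earlier results of these data known, so they are not free of selection.

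**Figure D1:**
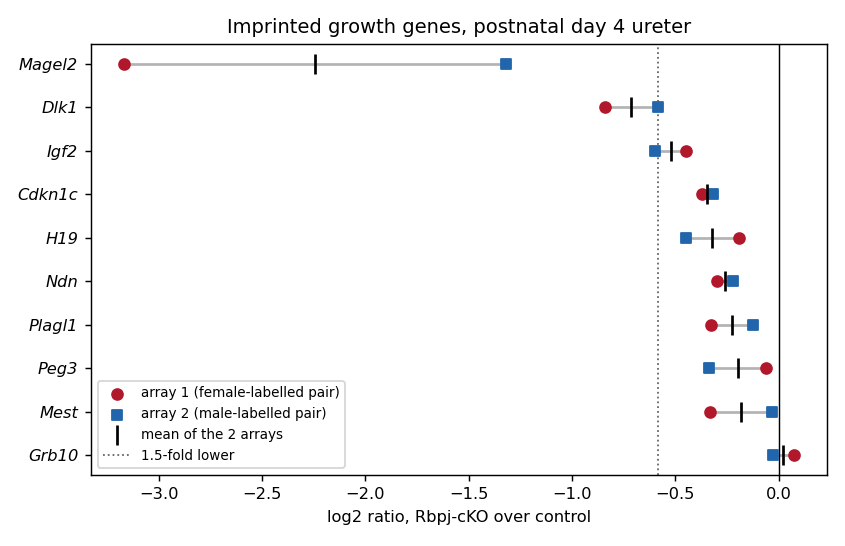
Log2 ratio of Rbpj-cKO over control (x axis) for the 10 imprinted growth genes (y axis), each by its brightest probe; circles are array 1, squares array 2, black bars the mean of both, and the dotted line marks 1.5-fold lower. Magel2 lies at -3.17 and -1.32, the pair of values of every gene but Grb10 lies below 0 (with median centring in place of loess, H19, Plagl1, Mest and Peg3 lie above 0 on array 1), and Grb10 has 0.07 and -0.03.

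On a scale of normalised log2 intensity, which allows the 4 RNAs to be set side by side for one probe, 8 of the 10 genes had a lower level in both Rbpj-cKO RNAs than in either control RNA. Of all genes, 20.8% did. The exceptions were Peg3 and Grb10. Peg3 missed the rule narrowly, with 14.490 in the Rbpj-cKO RNA of array 1 and 14.489 in the control RNA of array 2. Mest met the rule only narrowly, with 15.977 in the Rbpj-cKO RNA of array 1 and 15.979 in the control RNA of array 2. Between arrays such levels are open to dye bias, since the same genotype was red on one array and green on the other. In whole-ureter RNA, fewer cells of a type and less RNA per cell cannot be told apart.

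**Figure D2:**
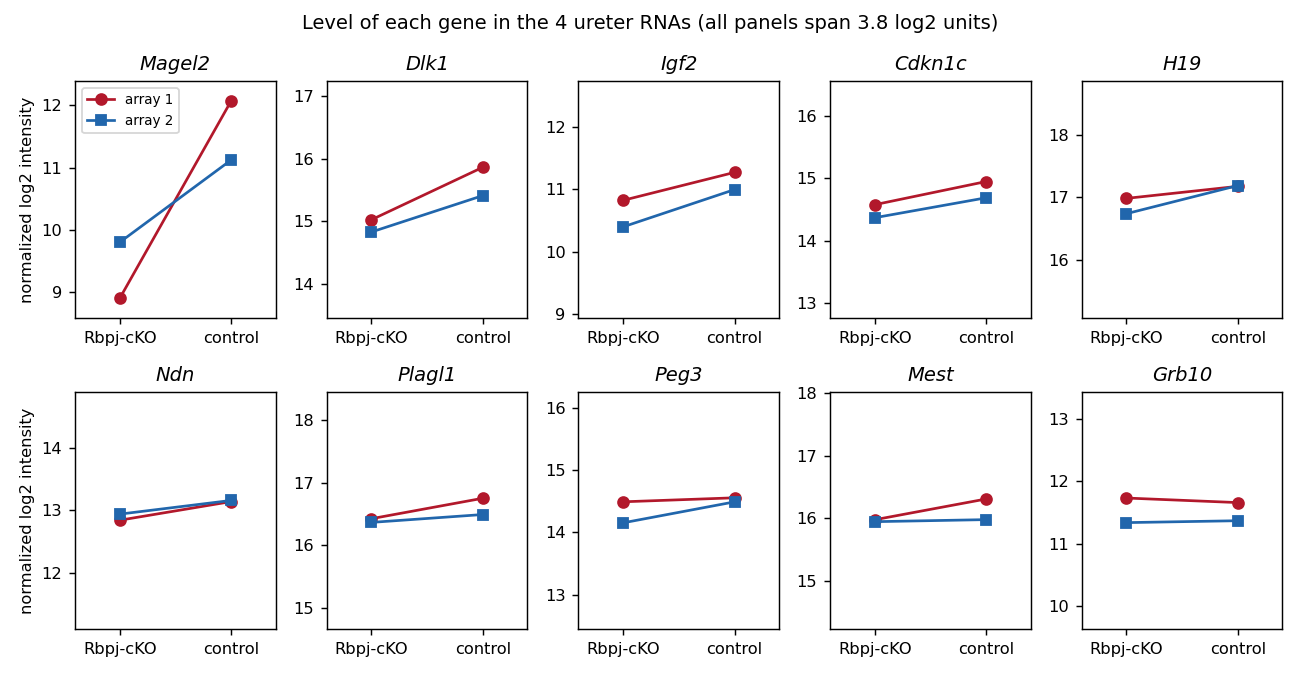
Normalised log2 intensity (y axis) of each gene's brightest probe in the Rbpj-cKO and control RNAs (x axis); circles joined by a line are the pair of array 1, squares the pair of array 2, and every panel spans the same range. Magel2 shows the steepest lines, with 8.90 and 9.80 in the Rbpj-cKO RNAs and 12.07 and 11.12 in the control RNAs, and Grb10 is nearly flat.

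Magel2 encodes a MAGE-family protein that works with a ubiquitin ligase in endosomal protein recycling and is one of the genes lost in Prader-Willi syndrome in humans. It had log2 levels of 8.90 and 9.80 in the Rbpj-cKO RNAs of arrays 1 and 2, against 12.07 and 11.12 in the control RNAs. Both Rbpj-cKO RNAs lay below both control RNAs, as in 20.8% of all genes, and the pair of array 1 was further apart on both sides. The ratios of -3.17 in the first pair and -1.32 in the second averaged -2.24 ± 1.31 (SD, n = 2). The Rbpj-cKO RNA thus held 11.1% of the control level on array 1 and 40.1% on array 2. By its mean it ranked 13 from the lowest of the 21143 genes. The ratio rests on a single probe on chromosome 7 at 69526370-69526429 (mm9), whose 4 spots had an SD of 0.06 on array 1 and 0.01 on array 2, far less than the difference between arrays.

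Ndn encodes necdin, another MAGE-family protein that restrains cell division in neurons and progenitor cells, and its probe lies 32523 bases from that of Magel2 (chromosome 7 at 69493847-69493906, mm9). Its log2 levels were 12.84 and 12.94 in the Rbpj-cKO RNAs and 13.14 and 13.16 in the control RNAs. The ratios were -0.30 on array 1 and -0.22 on array 2, a mean of -0.26 ± 0.06. Necdin was thus lower by a similar, small amount in both pairs, while its neighbour Magel2 was lower by a large and unequal amount.

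Dlk1 encodes a transmembrane and secreted EGF-repeat protein, also called Pref-1, that holds back fat cell differentiation and can act as a non-canonical Notch ligand. Its log2 levels were 15.02 and 14.83 in the Rbpj-cKO RNAs, against 15.87 and 15.41 in the control RNAs. Both Rbpj-cKO RNAs thus lay below both control RNAs, as in 20.8% of all genes. The ratios were -0.84 and -0.58, with a mean of -0.71 ± 0.18, and the Rbpj-cKO RNAs held 55.8% and 66.7% of the control level. The second Dlk1 probe gave -0.66 and -0.57. Both probes lie on chromosome 12 (mm9), the brighter at 110698721-110698781 and the other at 110698502-110698561. They read the same 4 RNAs, so the second probe is no independent support for a ratio that chose the list.

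The sequences before the transcription start of Magel2, Ndn and Dlk1 are shown because the neighbours Magel2 and Ndn differed in ratio and because Magel2 and Dlk1 led the list. They are the 250 bases upstream of the start in RefSeq (GRCm38.p6, 5′ to 3′ on the gene's strand), at chr7:62376729-62376978 for Magel2, chr7:62348027-62348276 for Ndn and chr12:109452573-109452822 for Dlk1, all on the plus strand. Capitals mark a match to TGGGAA, the core of the sequence that RBPJ is known to bind, read on either strand; no other motif was searched.
Magel2: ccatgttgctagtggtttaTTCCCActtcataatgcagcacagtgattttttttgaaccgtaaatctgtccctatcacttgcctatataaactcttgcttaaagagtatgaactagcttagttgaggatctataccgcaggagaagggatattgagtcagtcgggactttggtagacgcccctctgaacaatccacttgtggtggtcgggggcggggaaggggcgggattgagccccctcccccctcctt
Ndn: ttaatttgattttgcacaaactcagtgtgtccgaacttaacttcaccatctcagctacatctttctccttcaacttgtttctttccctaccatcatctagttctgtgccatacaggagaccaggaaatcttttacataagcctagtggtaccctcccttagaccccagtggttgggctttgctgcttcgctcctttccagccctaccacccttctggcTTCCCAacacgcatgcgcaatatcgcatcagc
Dlk1: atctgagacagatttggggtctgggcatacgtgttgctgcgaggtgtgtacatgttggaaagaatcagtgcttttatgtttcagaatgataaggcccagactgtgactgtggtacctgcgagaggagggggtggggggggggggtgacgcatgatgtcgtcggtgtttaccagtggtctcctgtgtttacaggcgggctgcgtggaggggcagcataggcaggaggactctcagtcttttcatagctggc

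Magel2 and Ndn each had 1 match in these windows, both on the minus strand, which began 231 bases before the start in Magel2 and 32 bases before it in Ndn. In the window of Dlk1 these letters were not found. Promoter windows were matched for 8 of the 10 genes, 14 windows in all (H19 and Cdkn1c had no entry). The motif was found for 4 of the 8 genes: Magel2, Ndn, Igf2 in 2 of its 4 windows, and Mest in 2 overlapping windows of 3. Of all 32851 promoter windows of the same length, 21.6% held it, and of all 27025 genes 24.1% had it in at least 1 window. A match describes the sequence and is not a binding site.

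Igf2 encodes insulin-like growth factor 2, the main fetal growth factor of the group, and H19 is the long non-coding RNA next to it that shares its enhancers and imprinting control. Igf2 had log2 levels of 10.82 and 10.40 in the Rbpj-cKO RNAs and 11.27 and 11.00 in the control RNAs. Its ratios were -0.45 and -0.60, a mean of -0.52 ± 0.11, so the Rbpj-cKO RNAs held 73.3% and 66.1% of the control level. The single Igf2 probe lies on chromosome 7 at 149839661-149839720 (mm9).

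H19 had log2 levels of 16.98 and 16.74 in the Rbpj-cKO RNAs and 17.18 and 17.19 in the control RNAs. The ratios were -0.19 and -0.45, with a mean of -0.32 ± 0.18. Both genes of the locus were thus lower in both pairs after loess. For H19 the values by array moved with the processing: they were -0.33 and -0.32 with the scanner log ratio, -0.31 and -0.32 with the series table and 0.38 and -1.03 with median centring. H19 and Igf2 are known to be abundant in the liver of newborn mice, and the part of liver RNA in their ratios was not tested. A dim second H19 probe (chromosome 7 at 149762417-149762476, mm9), with levels between 7.00 and 7.12 in all RNAs, gave -0.07 and -0.11, whereas the bright one lies at 149761492-149761551.

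Cdkn1c encodes p57Kip2, an inhibitor of cyclin-dependent kinases that lets cells leave the cell cycle and limits growth. Its log2 levels were 14.58 and 14.37 in the Rbpj-cKO RNAs, against 14.95 and 14.69 in the control RNAs. The ratios of -0.37 and -0.32 differed little between the 2 pairs (mean -0.35 ± 0.04), though with median centring they were -0.21 and -0.50. Cdkn1c restrains growth and Igf2 promotes it, yet both had less RNA in the mutant of each pair.

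Plagl1 encodes the zinc finger factor Zac1, which in mice regulates H19, Igf2, Cdkn1c, Dlk1 and other imprinted genes as the hub of an imprinted gene network. Its brightest probe had log2 levels of 16.42 and 16.36 in the Rbpj-cKO RNAs and 16.75 and 16.49 in the control RNAs, and ratios of -0.33 and -0.13 (mean -0.23 ± 0.14). Its 4 probes did not give one answer. The second probe, with -0.32 and -0.17, shares an unbroken run of 26 bases with the brightest although they lie 448 bases apart on chromosome 10, so the pair is not an independent reading. The dimmer probes gave -0.10 and -0.16 at one site and 0.14 and -0.04 at the other.

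Peg3 encodes a large zinc finger protein known from maternal behaviour, metabolism and muscle stem cells. Its log2 levels were 14.49 and 14.15 in the Rbpj-cKO RNAs and 14.55 and 14.49 in the control RNAs, which overlapped. Its ratios of -0.06 and -0.34 gave a mean of -0.20 ± 0.19, and its dimmer probe had 0.03 and -0.35. Each of the 2 probes thus had its lower ratio on array 2, the male-labelled pair, where sex label, dye orientation and pair cannot be told apart.

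Mest, also called Peg1, encodes a protein of the alpha/beta hydrolase fold that is linked to fat cell size and to mesoderm development. It showed the opposite arrangement, with ratios of -0.33 and -0.03 (mean -0.18 ± 0.21). Its log2 levels were 15.98 and 15.95 in the Rbpj-cKO RNAs and 16.31 and 15.98 in the control RNAs. Over its 3 probes the ratios were between -0.39 and -0.32 on array 1 and between -0.11 and -0.03 on array 2, so after loess the larger difference was in the female-labelled pair. With median centring Mest had 0.07 and -0.45, the reverse order.

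Grb10 encodes an adaptor protein that dampens insulin and IGF receptor signalling. Its log2 levels were 11.73 and 11.34 in the Rbpj-cKO RNAs and 11.66 and 11.37 in the control RNAs, with ratios of 0.07 and -0.03 (mean 0.02 ± 0.07). The mean of Grb10 was smaller than its spread, and so was that of Mest. For the other 8 genes the size of the mean was above the SD between arrays, which held for 49.9% of all genes.

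**Figure D3:**
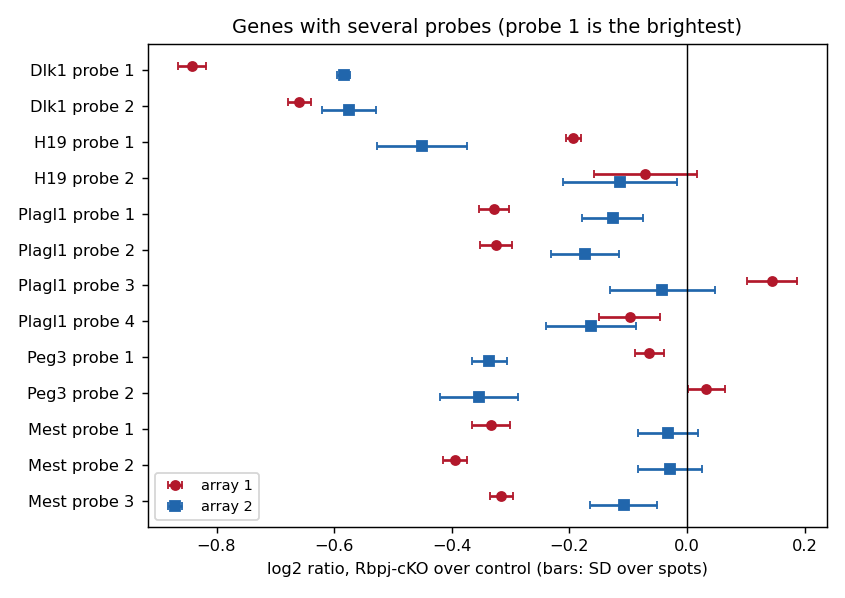
Log2 ratio of Rbpj-cKO over control (x axis) for each probe of the 5 genes with several probes (y axis), ordered from the brightest; circles are array 1, squares array 2, and bars are the SD over the spots of the probe. The 3 Mest probes lie close together on each array, the Dlk1 probes differ on array 1 (-0.84 and -0.66), and those of Plagl1 range from -0.33 to 0.14 on array 1.

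The 60-base probes are shown for a gene read at one site only, for the second Dlk1 site and for the Plagl1 site that differed from the others, as the array design gives them (5′ to 3′, no letters in capitals because no motif is marked). The probe of Ndn lies on chromosome 7 at 69493847-69493906, that of Dlk1 on chromosome 12 at 110698502-110698561 and that of Plagl1 on chromosome 10 at 12848421-12848480 (mm9, plus strand).
Ndn: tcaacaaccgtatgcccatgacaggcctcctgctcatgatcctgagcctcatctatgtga
Dlk1: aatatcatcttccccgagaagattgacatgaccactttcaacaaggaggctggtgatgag
Plagl1: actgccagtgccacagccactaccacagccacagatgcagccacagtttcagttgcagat
The Plagl1 probe repeats short stretches of c, a and g along its length and gave 0.14 on array 1 and -0.04 on array 2, against -0.33 and -0.13 for the brightest probe. Its ratio on array 2 rests on 3 spots, because 1 carried an outlier flag.

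After loess, Magel2, Dlk1 and Igf2 stood lowest in both pairs. Of the 9 genes lower on both arrays, 6 (Magel2, Dlk1, Mest, Plagl1, Ndn and Cdkn1c) were further below 0 on array 1 and 3 (H19, Igf2 and Peg3) on array 2. This split held only in part under other processing: with median centring Dlk1 (-0.56 and -0.86), Cdkn1c (-0.21 and -0.50), Mest and Plagl1 were lower on array 2 than on array 1, and with the scanner's own log ratio so was Cdkn1c (-0.29 and -0.36), as it was with the series table (-0.25 and -0.35). H19 had -0.331 and -0.323 with the scanner log ratio, the reverse of its order after loess. Peg3 was not lower on both arrays with the scanner log ratio (0.02 and -0.35) or the series table (0.03 and -0.34). Sex label, dye orientation and pair changed together and cannot be told apart. Fat cell markers were lower on both arrays as well, 13 of 13, with medians of -2.74 and -1.06. Their summed log2 level was 17.52 and 17.69 in the Rbpj-cKO RNAs and 19.96 and 18.54 in the control RNAs, and all 13 were well above background in every RNA. Of the genes that precede fat cell differentiation, Ebf2 had a mean of -1.35 ± 0.92 and was lower on both arrays, whereas Pdgfra had 0.45 and 0.49. Zfp423 had -0.24 and 0.17 and Cd34 0.00 and 0.09, so 1 of these 4 was lower on both. The list also named Pref-1, which is Dlk1 and was not counted among the 4. The part of fat cell RNA in the ratios of Magel2 and Dlk1 was not tested.

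Neuron markers, listed because Magel2 and Ndn are known from neurons, gave a summed log2 level of 14.35 and 14.24 in the Rbpj-cKO RNAs and 14.18 and 14.20 in the control RNAs, and 1 of 6 was lower on both arrays. Skeletal muscle, where Igf2, H19 and Dlk1 are abundant around birth, gave 15.53 and 15.67 in the Rbpj-cKO RNAs and 15.85 and 15.86 in the control RNAs, with 4 of 7 measured markers lower on both arrays. The lowest of these was the perinatal myosin Myh8, with -1.51 and -1.24. Of the 7, 2 were higher on both arrays, Actn3 (0.28 and 0.20) and Myog (0.14 and 0.02). Of the 6 neuron markers, 3 were higher on both. Over all genes, 29.8% were lower and 31.7% higher on both arrays. The part of neuron and skeletal muscle RNA in the ratios was not tested either.

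**Figure D4:**
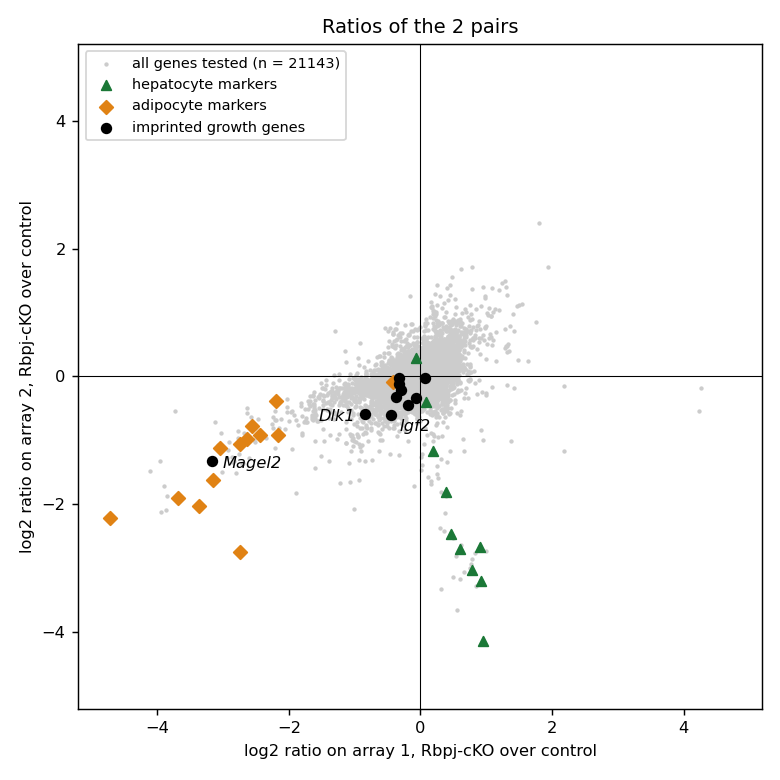
Log2 ratio of Rbpj-cKO over control on array 1 (x axis) and array 2 (y axis) for all 21143 genes tested (grey), the 10 imprinted growth genes (black), adipocyte markers (orange) and hepatocyte markers (green). Magel2 at -3.17 and -1.32 lies among the adipocyte markers, the other imprinted growth genes lie near the centre, and the hepatocyte markers, all but Trf, lie below 0 on array 2 and above 0 on array 1.

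Likeness to Magel2 and Dlk1 was measured as the straight-line distance between genes in the plane of the 2 ratios, so over 2 arrays only. The genes nearest to Magel2 were B3galt2 (-2.94 and -1.27), Plin1 (-3.05 and -1.12) and Ces1f (-3.01 on array 1), at distances of 0.228, 0.229 and 0.235. Plin1 is in the adipocyte list. The genes nearest to Dlk1 were Myo18b (-0.88 and -0.63), Ngfr (-0.84 and -0.64) and Clic5 (-0.88 and -0.53), at distances of 0.0549, 0.0566 and 0.0696.

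Imprinted genes lie in clusters, and the neighbours of the 10 genes were read from a list of 54 other imprinted genes, of which 48 passed the filter. Around Magel2 and Ndn, the paternally expressed Snrpn, a splicing protein gene, had 0.15 and 0.32, Mkrn3, a ring finger gene, 0.01 and -0.12, and Peg12, a gene of the Frat family, -0.19 and -0.06. The maternally expressed ubiquitin ligase gene Ube3a had -0.08 and -0.15. No measured neighbour of Magel2 in the cluster therefore had a ratio near its -3.17 and -1.32.

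In the Dlk1 cluster, the maternally expressed non-coding RNA Meg3 had -0.27 and -0.05, and its other 2 probes had means of -0.29 and -0.13. Mirg, a non-coding RNA that hosts microRNAs further along the cluster, had -0.58 and -0.46 (mean -0.52 ± 0.09, adjusted p = 0.150 in limma), but the means of its 3 probes ranged from -0.52 to -0.01. Beside H19 and Igf2, Ins2, an insulin gene, had -0.10 and -0.19.

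The Kcnq1 cluster that holds Cdkn1c gave values on both sides of 0. The antisense RNA Kcnq1ot1, whose transcription silences the paternal copies of the cluster, had -0.09 and -0.29, and the potassium channel gene Kcnq1 -0.70 and -0.12. In the other direction Phlda2, a growth-restraining gene of the placenta, had 0.15 and 0.05, Slc22a18, a transporter gene, 0.29 and 0.13, and Ascl2, a transcription factor, 0.26 and 0.28. Next to Mest, Copg2 had 0.09 and 0.10 and Klf14 -0.42 and -0.17. Next to Peg3, Usp29 had -0.14 and -0.06 and Zim1 0.03 and -0.02, and next to Grb10, Ddc had 0.03 and -0.05.

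**Figure D5:**
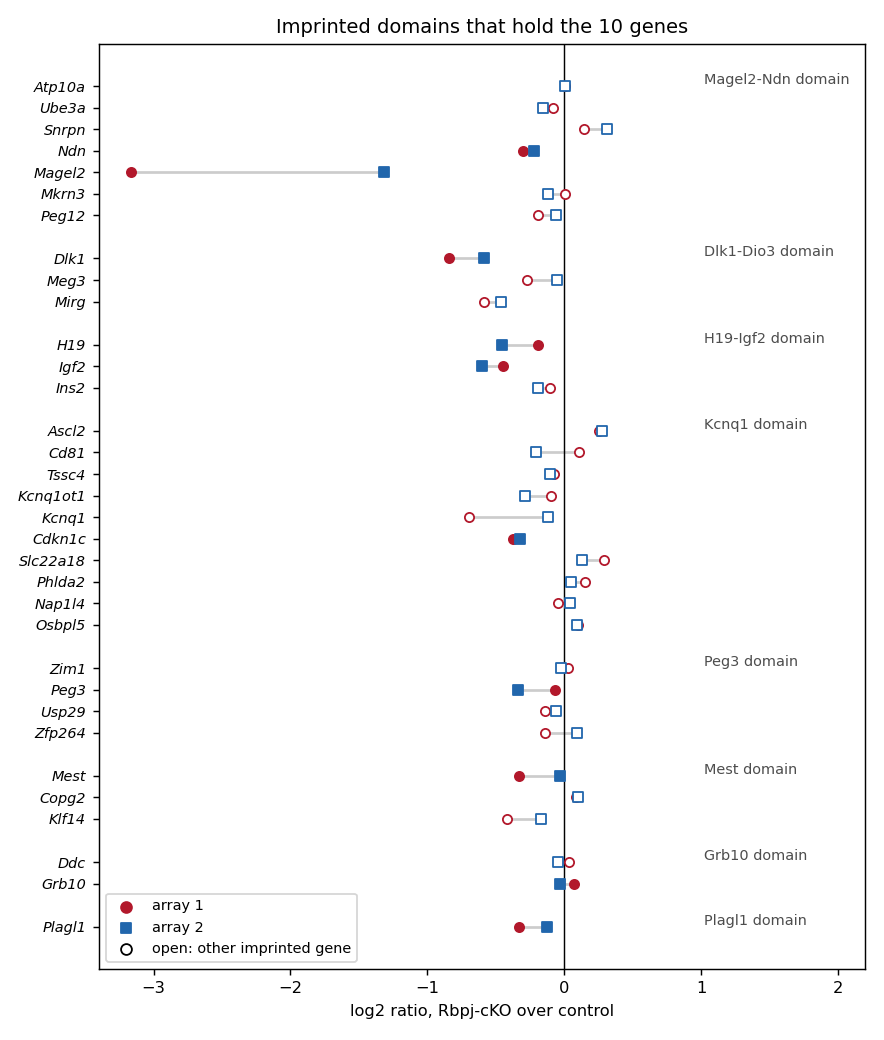
Log2 ratio of Rbpj-cKO over control (x axis) of the 10 imprinted growth genes (filled) and of the other measured imprinted genes in the same clusters (open), ordered by position within each cluster (y axis); circles are array 1, squares array 2. Magel2 stands apart from the rest of its cluster, and Dlk1, Meg3 and Mirg lie below 0 on both arrays.

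Outside these clusters, Nnat, a small membrane protein gene of brain and fat, had -1.10 and -0.23 (mean -0.67 ± 0.62), the lowest mean of the 48. Nap1l5 and Rasgrf1 had the highest, with 0.35 ± 0.01 and 0.34 ± 0.03. Gnas, which encodes the stimulatory G protein subunit and spans several transcripts, had -0.32 ± 0.13 at its brightest probe and means from -0.32 to 0.37 over its 4 probes. Of the 48 genes, 17 were lower and 16 higher on both arrays, which is 35.4% and 33.3%, beside 29.8% and 31.7% of all genes. The medians were -0.01 and 0.00.

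None of the 48 passed limma with Benjamini-Hochberg adjustment over all genes (0 genes, smallest adjusted p = 0.150), and 0 did with trend and robust settings. The trend and robust settings called 46 genes higher and 49 lower among all 21143, so 0 of 48 does not set the imprinted genes apart. At an unadjusted p under 0.05, limma gave 11 of the 48, 22.9%, where all genes gave 14.0%; 5 of them were lower (Nnat, Mirg, Slc22a2, Gnas and Klf14) and 6 higher (Nap1l5, Rasgrf1, Ascl2, Zrsr1, Tfpi2 and Snrpn). Across the whole array the main settings called 1 gene lower (Ucp1, 0.00473% of genes) and 0 higher, so the test could place few genes of any kind past the threshold. A difference between the 10 genes and the 48 was not tested, since the 10 were picked with their ratios known.

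Of the partners of Igf2 and Grb10 in growth factor signalling, 9 of 9 listed genes were measured and their means lay between -0.21 and 0.24. The clearing receptor Igf2r, itself maternally expressed, had -0.01 and 0.21, and the signalling receptor Igf1r 0.25 and -0.05. Igf1 had 0.05 and 0.26 and the RNA-binding protein gene Igf2bp3 0.22 and 0.25, while the receptor substrate Irs1 had -0.24 and -0.19. None of the 9 passed over all genes in limma (0 genes, smallest adjusted p = 0.303). In limma 2 of the 9, Irs1 and Igf2bp3, had an unadjusted p under 0.05, beside 14.0% of all genes. The network around Plagl1 was read from 6 listed genes, of which all but Dcn were already among the 48 other imprinted genes. On both arrays 3 were lower and 0 higher, beside 29.8% and 31.7% of all genes. The 3 were Nnat (-1.10 and -0.23), Gnas (-0.41 and -0.23) and Meg3 (-0.27 and -0.05). The other members were Igf2r, the proteoglycan gene Dcn with 0.41 and -0.02, and Sgce, a sarcoglycan gene, with 0.00 and 0.01.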

How the data were processed

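Mouse ureter RNA was measured on 2 two-colour Agilent arrays with 4 spots per 60-base probe. The deposited spot values are fluorescence intensities from Agilent Feature Extraction 10.7.3.1, per the file headers, which also give probe positions on mm9. A log10 ratio of the red to the green channel is deposited beside them, per the file headers. The authors' deposited series table holds a score of unstated origin; it was read as a signed fold change because no value lay between -1 and 1, its correlation across probes with the log ratio was 0.777 and 0.686, and it served only as an alternative. Flags for background and outliers are other deposited columns.

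Mean signals were corrected with normexp on local background medians (offset 50) and loess-normalized within arrays, control spots at weight 0. Outlier-flagged spots were dropped and no gene spot was saturated. The dye labels set the direction, with Rbpj-cKO on top. Probes needed over 50% of spots flagged well above background in one genotype's channel of each array, and each gene took its brightest probe. Names came from RefSeq (GRCm38.p6) accessions for 28328 probes and otherwise from the file. Levels per RNA are log2 intensities after quantile normalization of average intensities. limma 3.58.1 (R 4.3.3) tested ratios against 0 with Benjamini-Hochberg adjustment at 0.05 on 1 residual degree of freedom per gene. The pipeline was tested on simulated data. Named genes are the 10 members, the listed imprinted, IGF and marker genes, and the 3 nearest to Magel2 and Dlk1. The members and lists were chosen with earlier results of these data known. The sources used here do not say whether the RNAs came from separate animals, so p-values speak only for these 2 pairs. They rest on each gene's spread between the pairs, moderated by limma with the spread over all genes (mean total degrees of freedom 4.35).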

Additional observations from a re-analysis of the deposited data

Results flagged for a closer look

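Grb10 was higher in the Rbpj-cKO RNA of the pair labelled female and lower in that of the pair labelled male, with log2 ratios of 0.07 and -0.03. The ratios differed by 0.103. This difference was not tested: each sex label stands on 1 pair, and the dyes changed with it.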

How the results depend on the processing

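The limits are those of 2 pairs: no test of a single array is possible, and sex label and dye change with the pair. The 9 alternatives that recompute ratios from both arrays gave Magel2 means between -2.37 and -2.20, Dlk1 between -0.71 and -0.66 and Igf2 between -0.55 and -0.51. The sign of the mean stayed the same for 9 of the 10 genes under each of the 9; Grb10 had -0.0030 with median centring. Genes lower on both arrays numbered 5 of 10 with median centring, where H19 had 0.38 and -1.03, Plagl1 0.15 and -0.62, Mest 0.07 and -0.45 and Peg3 0.05 and -0.49, and 8 with the scanner log ratio and with the series table. The count at least 1.5-fold lower on both arrays was 2, with Dlk1 beside Magel2, with the scanner log ratio, scaling between arrays and the series table. Leaving out a replicate gave 2 in either case (Magel2 with Igf2 on array 2 alone, and with Dlk1 on array 1 alone), and 9 to 10 genes lower. Without replicate 1 the Magel2 ratio was -1.32 and without replicate 2 it was -3.17.

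Over all genes, those at least 1.5-fold higher numbered 85, and 245 with the scanner log ratio and 154 with the series table; leaving out a replicate gave 202 to 258. Those at least 1.5-fold lower numbered 168, and 265 with the scanner log ratio; leaving out a replicate gave 292 to 783. The 1 gene past the adjusted threshold, Ucp1, was lost (0 genes lower) with the scanner log ratio, median centring, scaling between arrays and the series table. With trend and robust settings limma called 46 genes higher and 49 lower, with 0 among the 48 other imprinted genes. Leaving out a replicate asks for a size or direction on a single array in place of both, so those counts could only stay or rise. The causes of the other shifts were not tested. No paired analysis was possible because each array is itself a pair and its ratio is the value tested.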
